A study of Mus musculus with 11 samples.

Results

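Interferon-stimulated genes (ISGs) are the transcripts that a cell raises when it meets type I interferon, and they were followed here as a list of 42 genes in mouse microglia, the resident macrophages of the brain. The genes were taken by name, through the RefSeq accession that each array probe carries. Of the 42, Gbp2 had no matched probe and the only matched probe of Gbp3 was too dim to pass the filter on background, which left 40 ISGs among 19560 genes tested. Of these, 25 rested on 1 probe and 15 on the mean of several.

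RNA had been measured on 11 single-colour Agilent arrays of C57BL/6N mouse microglia. Adult female mice gave 2 arrays of sorted cells (A_FACS) and newborn mice of both sexes gave 3 (NB_FACS); the sort took cells with intermediate CD45 and high CX3CR1 after trypsin digestion in serum-containing medium. Newborn microglia shaken from flasks of mixed glia, seeded from pooled brains and fed with L-929 conditioned medium as a source of M-CSF, gave 3 arrays after further culture with serum (NB_Control) and 3 with human TGF-β1, IL-34 and CX3CL1 in addition (NB_Stim), at 100 ng/mL each. No group received interferon by the labels. By the paper's methods the flasks were shaken weeks after the brains were taken, at several harvests. Cultured and sorted cells thus differed in isolation and in time since dissection as well as in culture. Between adult and newborn sorted cells, age could not be told apart from sex. Replicate 3 of each newborn group lay on slide 2 and the other 8 arrays, both adult arrays included, on slide 1. The study's methods define n as independent biological replicates, while the labels do not tie an array to an animal or culture. Values are quantile normalised log2 signals, so that a difference of 1 is a doubling, and an ISG was called higher or lower at a Benjamini-Hochberg adjusted p under 0.05 in limma over all 19560 genes.

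Type I interferons bind the receptor pair IFNAR1 and IFNAR2, whose kinases JAK1 and TYK2 activate STAT proteins. The factor ISGF3, which holds STAT2 and IRF9, then binds the interferon-stimulated response element (ISRE) in ISG promoters. The products include sensors of viral nucleic acid, enzymes and membrane proteins that block viral growth, and regulators such as IRF7, which amplifies interferon production, and USP18, which restrains the receptor. Microglia respond to interferon in infection, ageing and brain development.

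Promoter windows of 300 bases, from 250 before to 50 after the start site, were on hand from RefSeq (GRCm38.p6) for 31 of the 42 ISGs. There was no entry for Dhx58, Ifi204, Ifi27l2a, Mx1, Mx2, Oas2, Parp14, Parp9, Rtp4, Usp18 and Zbp1. The ISRE core GAAANNGAAA was searched on both strands, overlapping matches included, and it was found in 17 of 35 ISG promoters (48.6%) against 1131 of 32851 promoters of all genes (3.44%). The gamma-activated sequence TTCNNNGAA, known from genes induced by interferon-γ, was found in 6 of the 35 (17.1%) against 8.3% of all. Among the ISGs with a window, the ISRE core was present for 11 of 22 that were higher in NB_Control than in NB_FACS and for 3 of 7 that were tested and not called. The stretches below are shown because they hold the element through which ISGs are known to be switched on, in 5 ISGs that rose in culture (Ifit1, Ifit3, Irgm1, Igtp and Stat2) and in 2 that were not called (Isg15 and Rsad2). They run 5′ to 3′ on the strand of the gene, end before its start site, and carry the core in capitals, read as TTTCNNTTTC where it lies on the opposite strand.
Ifit1: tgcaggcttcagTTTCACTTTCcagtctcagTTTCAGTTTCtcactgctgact
Ifit3: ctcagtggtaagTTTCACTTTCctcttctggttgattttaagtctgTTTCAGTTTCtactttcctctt
Irgm1: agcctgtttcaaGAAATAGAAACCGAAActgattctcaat
Igtp: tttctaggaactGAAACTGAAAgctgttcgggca
Stat2: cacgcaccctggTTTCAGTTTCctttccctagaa
Isg15: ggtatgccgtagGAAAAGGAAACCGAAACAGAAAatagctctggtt
Rsad2: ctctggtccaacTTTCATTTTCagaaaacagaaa
These stretches lie at chr19:34640773-34640825 (plus strand) for Ifit1, chr19:34583361-34583428 (plus) for Ifit3, chr11:48871423-48871462 (minus) for Irgm1, chr11:58199510-58199543 (plus) for Igtp, chr10:128270264-128270297 (plus) for Stat2, chr4:156200863-156200908 (minus) for Isg15 and chr12:26456551-26456584 (minus) for Rsad2. Isg15 held 3 overlapping matches, more than the 2 of Ifit1, Ifit3 and Irgm1 and the 1 of Igtp, Stat2 and Rsad2. A match is a string of letters and not a measured binding site.

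The 7 tested of 8 microglial markers were well above background on all 11 arrays, and their summed level was 17.74 to 17.83 in A_FACS, 16.75 to 16.85 in NB_FACS, 14.74 to 14.97 in NB_Control and 16.51 to 16.57 in NB_Stim on the log2 scale. Markers of other cells moved between groups as well. The summed level of 7 fibroblast genes was 11.14 to 11.19 in NB_FACS, 15.38 to 15.62 in NB_Control and 14.59 to 15.75 in NB_Stim, and 2 of the 7 were well above background on no A_FACS array. The 4 erythroid genes summed to 17.18 to 17.64 in NB_FACS and 5.94 to 6.73 in culture, with 2 of them above background on no NB_Control array, and the 6 tested of 7 endothelial genes to 12.22 to 12.67 in NB_FACS and 9.97 to 11.26 in culture. Border macrophage markers summed to 13.45 to 13.77 in NB_FACS, 14.72 to 16.06 in NB_Control and 13.62 to 14.72 in NB_Stim. The brightest of these markers was Mrc1 in NB_FACS (mean 13.15) and Pf4 in culture. Pf4 rose in NB_Control (4.71, adjusted p 0.000825), while 3 of the 6 fell there (Cbr2, Cd163 and Lyve1) and the median of the 6 was -1.45. Between NB_Control and NB_Stim, Mrc1 was the 1 marker of the 6 called, and it fell from a mean of 13.33 to 8.08. Against NB_FACS, NB_Stim had 1 of the 6 higher (Pf4) and 4 lower, with a median of -4.88. The 4 tested of 6 monocyte, lymphocyte and plasmacytoid dendritic cell markers summed to 10.24 to 10.39 in NB_FACS and 8.14 to 8.69 in culture, and 5 astrocyte markers to 10.11 to 10.94 over the newborn arrays. Single members departed from these sums. Against NB_FACS, the astrocyte markers Gfap and S100b were called higher in both cultured groups, and no astrocyte marker was called lower. Cd3e was called higher in both as well, while Ly6c2 and Siglech were called lower. Of the endothelial genes Flt1 was called higher in NB_Stim than in NB_FACS, while Cldn5, Ly6c1 and Pecam1 were called lower. The 3 tested of 4 neutrophil markers summed to 7.57, 7.33 and 12.09 on the NB_FACS arrays and 8.70 to 10.74 in culture. In bulk RNA, fewer cells of a type and less RNA per cell cannot be told apart, and the part of these cells in the ISG differences was not tested. Arrays of slide 2 were brighter, with a 75th percentile of 446 to 509 intensity units against 173 to 315 on slide 1, and the share of probes above background ran from 66.8% to 80.5%.

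By at least 1 probe, all 40 tested ISGs were well above background on every array, apart from Ifi44, which was so on 1 of 3 NB_FACS arrays. Taken over the list and relative to each gene's mean over the 11 arrays, the median ISG stood at -0.93, -0.75 and -0.95 on the 3 NB_FACS arrays, at 0.98, 0.74 and 0.49 on the NB_Control arrays, at 0.14, -0.09 and 0.49 on the NB_Stim arrays and at -0.69 and 0.13 on the A_FACS arrays. The newborn groups were thus ordered with sorted cells lowest, and the adult arrays did not resemble each other. The median over all genes stayed between -0.08 and 0.04 on the same arrays. NB_Control had the highest group mean for 30 ISGs, A_FACS for 6, NB_Stim for 3 (Bst2, Ifi35 and Lgals3bp) and NB_FACS for 1 (Oasl1). NB_FACS had the lowest for 29.

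**Figure D1:**
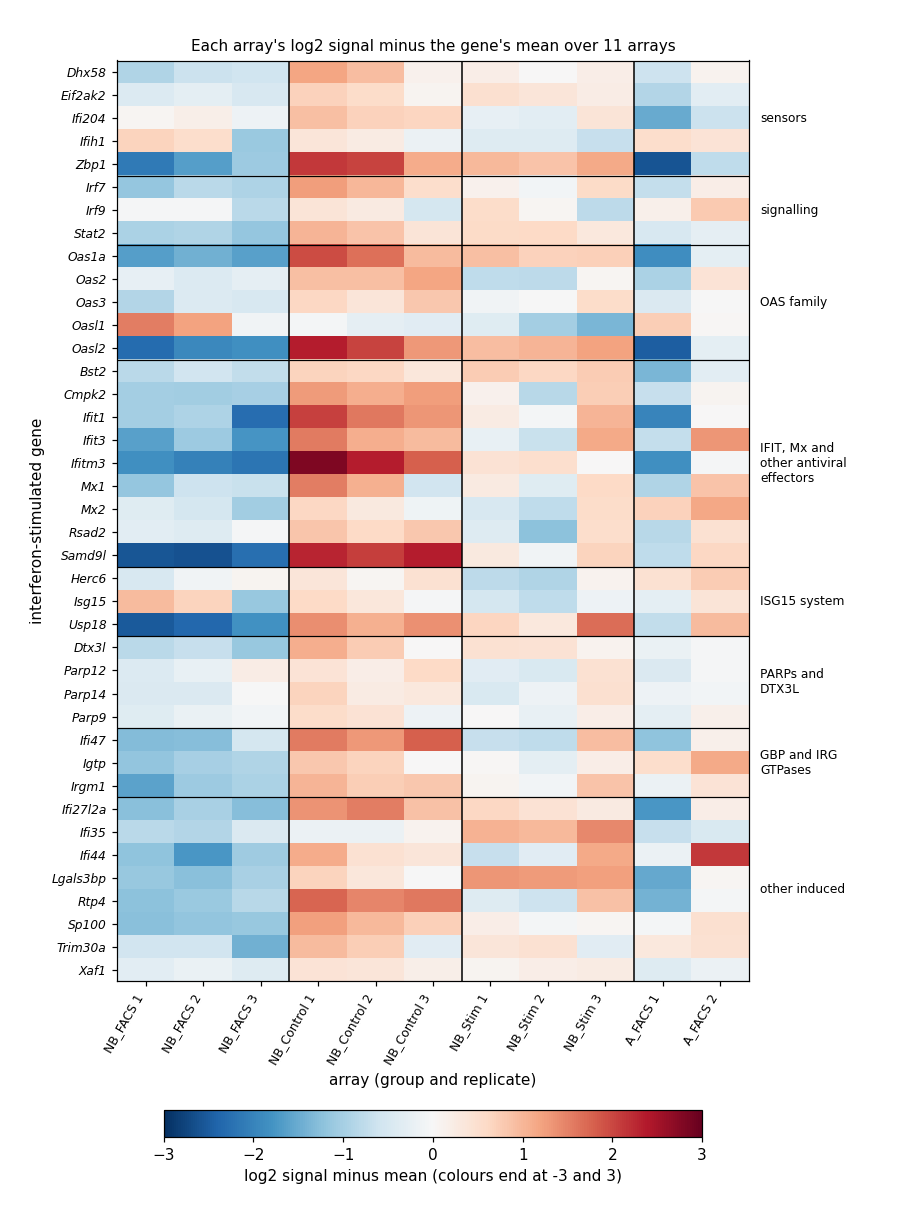
Log2 signal of each of the 40 tested ISGs (rows, grouped by role) on each of the 11 arrays (columns), minus the gene's mean over all arrays; red is above and blue below that mean, and the colours end at -3 and 3. The NB_FACS columns are mostly blue and the NB_Control columns mostly red, Oasl1, Isg15 and Ifih1 depart from this on the first NB_FACS arrays, and A_FACS 1 is bluer than A_FACS 2.

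The first comparison asked how ISGs differed between cultured and freshly sorted newborn microglia. Of the 40, 28 rose in NB_Control against NB_FACS (70%), where 15.8% of all genes were called higher. By limma none fell, where 13.9% of all genes were called lower, nor did any by Tukey's test, which called 20 of the 28 rises and not Eif2ak2, Ifi35, Ifi44, Ifi47, Ifit3, Lgals3bp, Oas2 and Trim30a. Of the 40, 35 differed at an unadjusted p under 0.05 (39.1% of all genes), with Oasl1 the 1 of them that was lower. The median difference was 1.48, against 0.09 over all genes, and 39 of 40 differences lay above 0 (57.1% of all genes). They ran from -1.10 for Oasl1 to 4.73 for Samd9l. The NB_Control arrays lay wholly above the NB_FACS arrays for 33 ISGs (24.0% of all genes) and wholly below for 0 (20.2%). Leaving out any 1 of the 11 arrays gave 25 to 32 ISGs called higher, where 2335 to 3490 of the 19560 genes were. Of the 28, 25 kept their call without each array in turn. The exceptions were Ifi35, Ifi44 and Trim30a. Within slides the median was 1.77 on slide 1 (2 arrays a group) and 1.13 on slide 2 (1 a group).

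The regulators of the response came first. Usp18, a protease that removes ISG15 from proteins and restrains the interferon receptor, read 5.81, 5.96 and 6.50 on the NB_FACS arrays and 9.72, 9.38 and 9.68 on the NB_Control arrays. The groups stood far apart, with a difference of 3.51 (SE 0.45, adjusted p 0.000276), or 11.4-fold. Stat2, the subunit of ISGF3 that activates transcription, read 6.26, 6.33 and 6.06 in NB_FACS and 8.23, 8.08 and 7.61 in NB_Control (difference 1.76, SE 0.18, adjusted p 7.81e-05). Irf7 read 5.77, 6.12 and 5.99 against 8.19, 7.93 and 7.45 (1.89, SE 0.28, adjusted p 0.000716). For Irf7 3 of its 4 probes differed by 1.95, 3.15 and 2.64 and the other by -0.17, and the last of these 3, 2.64, belonged to the brightest probe. Irf9, the DNA-binding subunit of ISGF3, overlapped between groups at 7.49, 7.49 and 6.71 against 7.91, 7.79 and 6.99 (0.33, SE 0.39, adjusted p 0.577), and its brighter probe differed by 0.92 while the other differed by -0.25. On its brighter probe alone Irf9 was called higher (adjusted p 0.00861).

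Among the 5 sensors of foreign nucleic acid, 3 rose. Zbp1, which recognises Z-form nucleic acid and can trigger cell death, read 6.07, 6.55 and 7.12 in NB_FACS and 10.33, 10.23 and 9.32 in NB_Control (difference 3.38, SE 0.45, adjusted p 0.000394). Dhx58, which encodes the RNA helicase LGP2, read 8.63, 8.90 and 8.93 against 10.72, 10.46 and 9.67 (1.47, SE 0.27, adjusted p 0.00275). Eif2ak2, the kinase PKR that halts translation, differed by 0.83 (adjusted p 0.0086). Ifih1, the RNA sensor MDA5, read 8.05, 7.92 and 6.28 in NB_FACS and 7.76, 7.65 and 7.21 in NB_Control (0.12, SE 0.40, adjusted p 0.857). NB_FACS replicate 3 lay far below the other 2 arrays of its group for Ifih1, whose 2 probes also disagreed, at -1.0 and 1.25. On the brighter probe alone Ifih1 was called higher (adjusted p 0.0006). The low array was also the one with the neutrophil sum of 12.09, whose part was not tested. Ifi204, a DNA sensor of the interferon-inducible p200 family, did not overlap between groups but missed the threshold (0.72, adjusted p 0.0552).

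The OAS family makes 2′-5′ oligoadenylates, which activate RNase L, and includes catalytically inactive relatives. Of its 5 members 4 rose. Oasl2 read 5.71, 6.09 and 6.19 in NB_FACS and 10.38, 10.05 and 9.33 in NB_Control, a difference of 3.93 (SE 0.48, adjusted p 0.000205), and Oas1a differed by 3.09 (adjusted p 0.000191), Oas2 by 1.31 (adjusted p 0.0141) and Oas3 by 1.19 (adjusted p 0.00272). The probes of Oas2 disagreed in size, at 2.5 for the dimmer, which was well above background on 1 of 3 NB_FACS arrays, and 0.12 for the brighter, on which alone the call was lost (adjusted p 0.797). The dimmer probe passed the filter through NB_Control alone. Oasl1, known to inhibit translation of Irf7 RNA, was the only ISG with its highest mean in NB_FACS. It read 5.82, 5.48 and 4.16 there and 4.21, 4.01 and 3.94 in NB_Control (-1.10, SE 0.42, adjusted p 0.0754). With the replicate number as a block Oasl1 was called lower (adjusted p 0.0119), and so it was without NB_FACS replicate 3 (-1.59, adjusted p 0.00489). One of its probes, at -2.12, was well above background on no NB_Control or NB_Stim array, and the other differed by -0.08.

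The antiviral effectors held the largest rises, with 6 of 9 called. Samd9l, an inhibitor of viral translation, read 5.28, 5.25 and 5.59 in NB_FACS and 10.15, 9.93 and 10.22 in NB_Control, a difference of 4.73 (SE 0.32, adjusted p 6.76e-06) or 26.5-fold. Ifitm3, a membrane protein that blocks the entry of enveloped viruses, read 9.39, 9.21 and 9.05 against 14.03, 13.58 and 13.03 (4.33, SE 0.41, adjusted p 4.85e-05), or 20.1-fold. The spread within each group of both genes was small beside these differences. Ifit1 and Ifit3, which bind viral RNA, differed by 3.07 (adjusted p 0.00185) and 2.69 (adjusted p 0.00456), Cmpk2 by 2.22 (adjusted p 0.000916) and Bst2, the tether of budding virions, by 1.25 (adjusted p 0.00284). The dimmer Cmpk2 probe (1.69) passed the filter through NB_Control alone, the group where it was high, and was well above background on 0 NB_FACS arrays. The brighter differed by 2.74, and the Cmpk2 call was kept in all 24 alternatives. Mx1 and Mx2, dynamin-like GTPases, and Rsad2 (viperin) were not called, at 1.49, 0.90 and 0.99 (adjusted p 0.0819, 0.0803 and 0.112), although their groups did not overlap. For Mx1, NB_Control replicate 3 read 7.16 beside 9.28 and 8.81, and without that array Mx1 was called higher (2.12, adjusted p 0.0115).

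Isg15 itself, the ubiquitin-like modifier, was not called. It read 10.30, 10.01 and 8.21 in NB_FACS and 9.95, 9.69 and 9.31 in NB_Control (0.15, SE 0.48, adjusted p 0.859). As with Ifih1, NB_FACS replicate 3 was the low array, and the difference was -0.33 within slide 1 and 1.1 within slide 2, opposite in sign. Of the ISG15 ligase Herc6 the difference was 0.46 (adjusted p 0.243), which left Usp18 as the only called gene of the 3. Dtx3l, the E3 ligase that partners PARP9, rose by 1.5 (adjusted p 0.00162), while Parp9 (0.49), Parp12 (0.54) and Parp14 (0.70) were not called. With the replicate block Parp12 (adjusted p 0.0343) and Parp14 (adjusted p 0.0342) were called higher. The probes of Parp14 differed in sign, at 1.52 and -0.12, and it was called higher on the brighter (adjusted p 0.000448) and in 10 of 24 alternatives in all.

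The interferon-inducible GTPases Irgm1, Igtp and Ifi47, which act on vacuoles of intracellular microbes, all rose, by 2.07 (adjusted p 0.000358), 1.53 (adjusted p 0.00111) and 2.58 (adjusted p 0.00264). So did all 8 of the other induced genes. Sp100, a nuclear body protein, read 5.02, 5.08 and 5.13 in NB_FACS and 7.51, 7.25 and 6.99 in NB_Control (2.17, SE 0.18, adjusted p 2.02e-05). Each of its 7 probes was higher, from 0.62 to 3.27, with 1.38 on the brightest. The probes at 2.46 and 3.27 were well above background on only 0 and 1 of the NB_FACS arrays. Rtp4 differed by 2.65, Ifi27l2a by 2.42, Ifi44 by 1.98, Lgals3bp by 1.46, Trim30a by 1.32 and Ifi35 and Xaf1 by 0.62 each. Ifi44 lost its call with normexp background correction (0.63, adjusted p 0.123). It also lost the call without any 1 of NB_FACS replicates 1 and 2 and NB_Control replicates 1, 2 and 3, at 1.74 to 2.12, and so did Ifi35 without the same arrays, at 0.53 to 0.67. Trim30a lost it without NB_FACS replicate 3 (1.03) or NB_Control replicate 1 (1.07) or 2 (1.17).

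**Figure D2:**
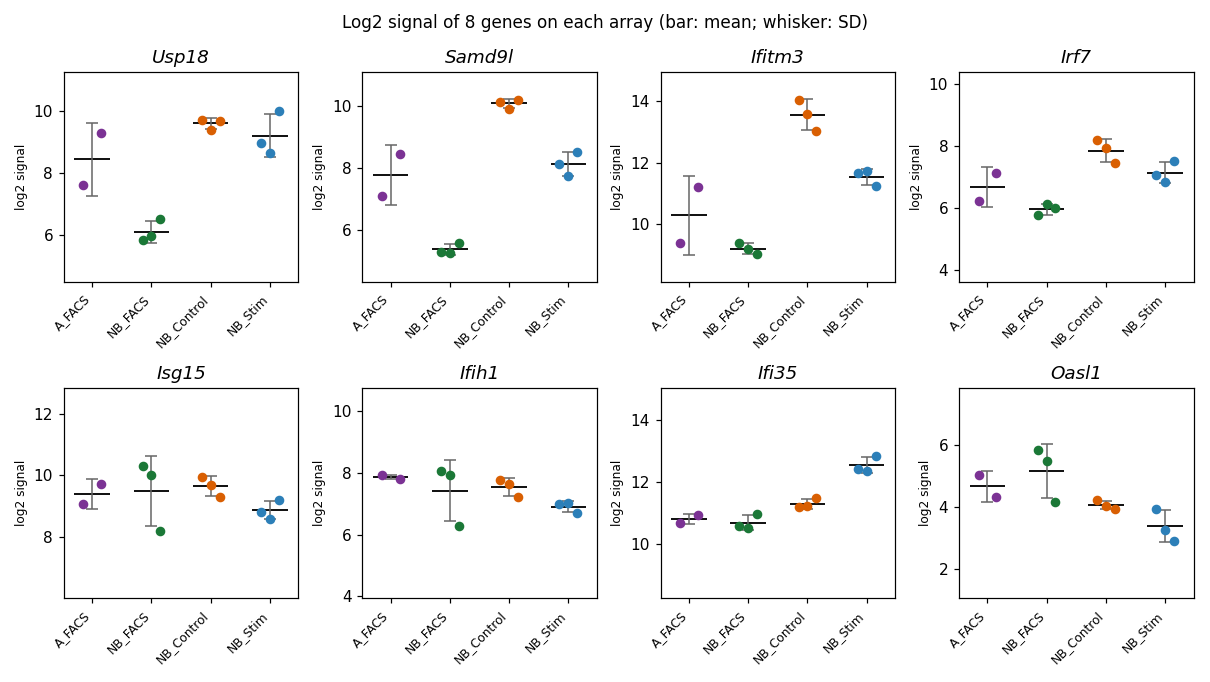
Log2 signal (y axis, equal span in every panel) of 8 ISGs on each array by group (x axis); points are arrays, the bar is the group mean and the whisker its SD (n = 2 for A_FACS, n = 3 for the others). Usp18, Samd9l, Ifitm3 and Irf7 are higher on every NB_Control array than on every NB_FACS array, Isg15 and Ifih1 overlap between these groups, with NB_FACS replicate 3 the lowest sorted array, Ifi35 is highest in NB_Stim and Oasl1 is highest on 2 of the NB_FACS arrays.

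The second comparison asked what TGF-β1, IL-34 and CX3CL1 did to ISGs in culture. In NB_Stim against NB_Control 4 ISGs fell (10%), where 2.00% of all genes were called lower, and 1 rose (2.5%), where 1.40% of all genes were called higher. The median ISG difference was -0.63, against 0.00 over all genes, and 37 of 40 differences lay below 0, where 49.9% of all genes lay above 0. The NB_Stim arrays lay wholly below the NB_Control arrays for 16 ISGs (13.8% of all genes) and wholly above for 2, Ifi35 and Lgals3bp (10.1%). The lowering was not the same on the slides. On slide 1 (2 arrays a group) the median was -0.97 with 37 ISGs lower, whereas on slide 2 (1 a group) it was -0.08 with 22 lower and 18 higher.

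Samd9l read 10.15, 9.93 and 10.22 in NB_Control and 8.14, 7.75 and 8.52 in NB_Stim (difference -1.96, SE 0.32, adjusted p 0.0101). Ifitm3 read 14.03, 13.58 and 13.03 against 11.66, 11.73 and 11.25 (-2.0, SE 0.41, adjusted p 0.03). These were the 2 ISGs with the largest rises in culture, and NB_Stim stayed between NB_FACS and NB_Control for both. Sp100 read 7.51, 7.25 and 6.99 against 6.48, 6.22 and 6.32 (-0.91, SE 0.18, adjusted p 0.0245), and Oas2 7.32, 7.33 and 7.59 against 5.65, 5.63 and 6.47 (-1.5, SE 0.33, adjusted p 0.0409). For Oas2 the probes differed by -2.77 and -0.22, the dimmer first, and the call was lost on the brighter probe (adjusted p 0.812), as was that of Sp100 on its brightest (-0.65, adjusted p 0.255). The dimmer Oas2 probe was well above background on 3 NB_Control arrays but on 1 array of each other group. It thus passed the filter through NB_Control alone, the group where it was high. The Oas2 call was lost in 15 of 24 alternatives. Ifi35, which forms a complex with NMI, was the ISG that rose, from 11.20, 11.21 and 11.49 to 12.43, 12.36 and 12.83 (1.24, SE 0.18, adjusted p 0.00512). Within slides these 5 differences kept their sign, with Samd9l at -2.09 and -1.70, Ifitm3 at -2.11 and -1.78, and Ifi35 at 1.19 and 1.34.

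Of the 5 ISGs called, Samd9l and Ifi35 kept their call without any 1 array. Ifitm3, Oas2 and Sp100 did not, and 1 ISG was called lower without NB_Control replicate 1, NB_Control replicate 2, NB_Stim replicate 1 or NB_Stim replicate 2, 2 without NB_FACS replicate 2 and 6 without NB_Stim replicate 3. Of all 19560 genes, 198, 187, 185 and 181 were called lower without the cultured replicates 1 or 2 in that order. Without NB_FACS replicate 2 there were 278, and without NB_Stim replicate 3 there were 352. Lgals3bp was called higher as well without either adult array. In limma 14 differed at an unadjusted p under 0.05 (15.2% of all genes). When replicates 1 and 2 of each cultured group were averaged before the limma fit, and with Tukey's test, 0 ISGs were called in either direction. Of all 19560 genes, 60 were called higher and 58 lower with averaging, and 87 and 96 with Tukey's test. With so few genes called, 0 does not set the ISGs apart. With the replicate block Ifi47 (-1.73, adjusted p 0.0332) and Herc6 (-0.83, adjusted p 0.0496) were called lower as well.

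None of the regulators and sensors was called in this comparison. Usp18 read 8.97, 8.64 and 10 in NB_Stim (difference from NB_Control -0.39, adjusted p 0.8), with NB_Stim replicate 3 above every NB_Control array. Stat2 at 7.80, 7.83 and 7.53 (-0.25, adjusted p 0.606) and Irf9 at 8.07, 7.57 and 6.73 (-0.11, adjusted p 0.953) overlapped NB_Control too. Irf7 read 7.06, 6.84 and 7.51 (-0.72, adjusted p 0.255), Dhx58 9.74, 9.55 and 9.73 (-0.61, adjusted p 0.335) and Ifih1 7.0, 7.01 and 6.71 (-0.63, adjusted p 0.54). Several ISGs that missed the threshold had larger differences, among them Ifi47 (-1.73, adjusted p 0.095), Rtp4 (-1.64, adjusted p 0.0723), Ifit1 (-1.26, adjusted p 0.305), Cmpk2 (-1.19, adjusted p 0.111), Ifit3 (-1.12, adjusted p 0.395) and Rsad2 (-1.11, adjusted p 0.239). Of the Cmpk2 probes, the dimmer (-1.09) passed the filter through NB_Control alone, and the brighter differed by -1.29. In Ifi47, Rtp4, Ifit1, Cmpk2, Ifit3 and Rsad2, NB_Stim replicate 3 read higher than replicates 1 and 2, for example 9.32 beside 8.42 and 7.57 for Rsad2 and 7.94 beside 6.34 and 6.25 for Ifi47. The fibroblast sum of that array, 14.59, was below the 15.52 and 15.75 of the other NB_Stim arrays, and its part in the difference was not tested.

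**Figure D3:**
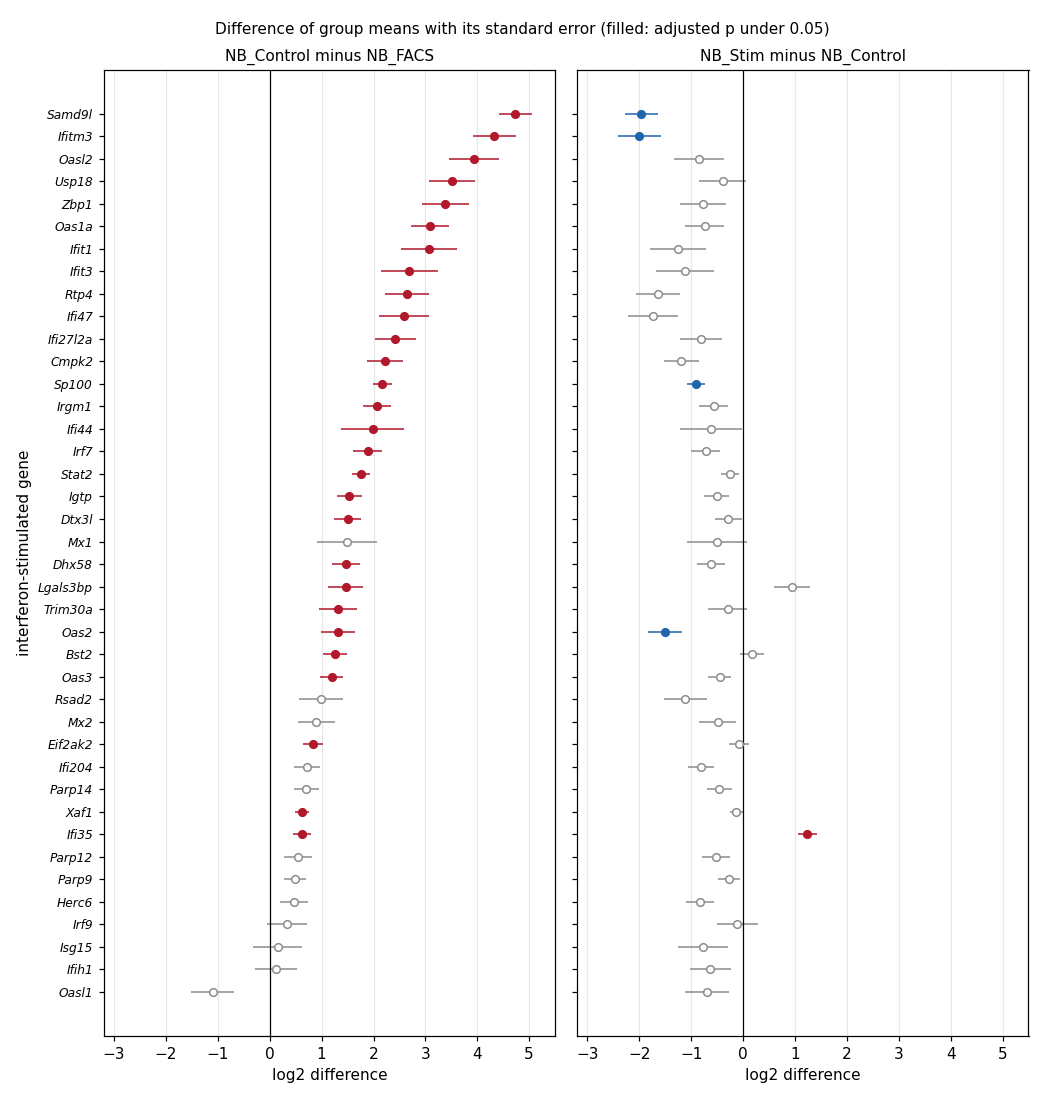
Log2 difference (x axis) of each tested ISG (y axis, ordered by the left panel) for NB_Control minus NB_FACS on the left and NB_Stim minus NB_Control on the right; points are differences of group means, lines are standard errors, and filled points passed an adjusted p of 0.05 (red higher, blue lower). In the left panel 28 points are red and none is blue, and in the right panel 4 are blue (Samd9l, Ifitm3, Sp100 and Oas2) and 1 is red (Ifi35). The panels share the NB_Control arrays.

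Cells with the cytokines were then set against sorted newborn cells. In NB_Stim 22 ISGs were higher than in NB_FACS (55%), where 16.0% of all genes were called higher, and 1, Oasl1, was lower (-1.80, SE 0.42, adjusted p 0.00843), where 15.1% were called lower. The median difference was 1.02, against 0.11 over all genes, and 33 of 40 differences were above 0 (57.9% of all genes). Of the 23 calls 17 were kept without each array in turn, and those of Cmpk2, Dhx58, Eif2ak2, Ifit1, Oas3 and Xaf1 were not. At an unadjusted p under 0.05, 27 differed (40.9% of all genes). NB_Stim lay wholly above NB_FACS for 27 (23.6%) and wholly below for 1 (19.9%). The largest were Usp18 (3.11, SE 0.45, adjusted p 0.000584), Oasl2 (3.08, SE 0.48, adjusted p 0.000908), Samd9l (2.76, SE 0.32, adjusted p 0.000168) and Zbp1 (2.61, SE 0.45, adjusted p 0.00181). Oasl2 read 8.94, 9.04 and 9.24 in NB_Stim and Zbp1 9.17, 9.06 and 9.34, each far above the NB_FACS arrays. Lgals3bp, a secreted glycoprotein, stood at 13.00, 12.89 and 13.17 in NB_FACS and at 15.46, 15.42 and 15.37 in NB_Stim (2.40, adjusted p 0.000592). Stat2 (1.51, adjusted p 0.000197), Irf7 (1.18, adjusted p 0.0103) and Dhx58 (0.86, adjusted p 0.0388) were higher as well, although Dhx58 lost its call in 12 of 24 alternatives, and Cmpk2 (1.03, adjusted p 0.0468) did in 14 of 24. The dimmer Cmpk2 probe, which passed the filter through NB_Control alone, differed by 0.60 and the brighter by 1.45. By group means 30 ISGs were ordered NB_Control, NB_Stim, NB_FACS from high to low, 6 (Herc6, Ifi204, Ifih1, Isg15, Oas2 and Rsad2) had NB_Stim lowest below NB_FACS, and 3 had NB_Stim highest. Sp100 and Xaf1 lost their calls on the brightest probe (adjusted p 0.0585 and 0.0665). The call of Oasl1 was lost on the brighter probe, with normexp, and when probes had to be above background on all arrays. Isg15 (-0.63, adjusted p 0.356) and Ifih1 (-0.51, adjusted p 0.369) were not called, but without NB_FACS replicate 3 both were called lower, at -1.28 (adjusted p 0.00755) and -1.08 (adjusted p 0.00284). Without NB_Stim replicate 3, Herc6 was called lower (-0.68, adjusted p 0.0314). Trim30a was called higher with the replicate block (1.02, adjusted p 0.000602).

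The last comparison set sorted adult against sorted newborn cells. In A_FACS 8 ISGs were higher (20%), where 9.75% of all genes were called higher, and 1 was lower (2.5%), where 12.9% were. The median was 0.48 against -0.01 over all genes, and 15 differed at an unadjusted p under 0.05 (35.1% of all genes). A_FACS lay wholly above NB_FACS for 16 ISGs (24.4%) and wholly below for 1 (26.8%). Samd9l read 7.09 and 8.47 in A_FACS (difference from NB_FACS 2.41, SE 0.36, adjusted p 0.00139), Usp18 7.59 and 9.27 (2.34, SE 0.50, adjusted p 0.00855), Ifi44 4.91 and 7.22 against 3.89, 3.35 and 4.02 (2.31, SE 0.67, adjusted p 0.0343), and Igtp 10.58 and 11.17 against 8.86, 9.04 and 9.14 (1.86, SE 0.27, adjusted p 0.00125). Mx2 (1.58), Sp100 (1.40), Irgm1 (1.33) and Stat2 (0.64) were the others. Ifi204 was the one lower ISG, at 9.06 and 9.91 against 10.62, 10.75 and 10.42 (-1.11, SE 0.28, adjusted p 0.0181). Of the 9 calls, Samd9l, Igtp and Sp100 were kept without any 1 array, but that of Sp100 was lost on its brightest probe (0.57, adjusted p 0.196). Ifi44 lost its call in 9 of 23 alternatives, among them normexp (0.87, adjusted p 0.0694) and the absence of A_FACS replicate 2 (1.15), NB_FACS replicate 1 (2.37), 2 (2.11) or 3 (2.44) or NB_Control replicate 2 (2.31). Ifi204 lost its call without A_FACS replicate 1 (-0.69) or NB_FACS replicate 2 (-1.03), Irgm1 without A_FACS replicate 2 (1.04), and Mx2 without A_FACS replicate 1 (1.81) or 2 (1.35) or NB_FACS replicate 3 (1.38). Stat2 kept its call without NB_Control replicate 3 or NB_Stim replicate 3 and lost it without any other 1 array, at 0.54 to 0.73. With the replicate block Dtx3l, Herc6 and Trim30a were called higher in addition (adjusted p 0.0483, 0.0163 and 0.00331).

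The 2 adult arrays differed from each other in the ISGs more than the newborn replicates did. A_FACS replicate 1 was below replicate 2 for 38 of 40 ISGs (51.1% of all genes), with a median difference of -0.75 against -0.01 over all genes. The difference was -1 or less for 17 ISGs (42.5%), where 4.33% of all genes were that low, and 1 or more for none (1.41%). Ifi44 read 4.91 and 7.22, Oasl2 5.54 and 7.73, Ifit3 6.30 and 8.35, and Ifit1 4.30 and 6.30 on replicates 1 and 2. These 4 differences of -2.31, -2.19, -2.05 and -2.0 were the largest, and only Oasl1 (5.02 and 4.31) and Ifih1 (7.92 and 7.81) ran the other way. The median SD of the ISGs was 0.532 in A_FACS against 0.173 for all genes, beside 0.234 and 0.236 in NB_FACS, 0.315 and 0.201 in NB_Control and 0.374 and 0.23 in NB_Stim. NB_Control replicate 1 was above its group mean for 38 of 40 ISGs as well, by a median of 0.26, where A_FACS replicate 2 was above its own by 0.38. There is no test with 1 array on each side.

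Against the NB_FACS mean, adult replicate 1 was higher for 21 ISGs with a median of 0.05, and replicate 2 for 38 with a median of 1.04. Of all 19560 genes, replicate 1 was higher for 9739 and replicate 2 for 9579, so the 21 were near the share over all genes. All 21 were above the NB_FACS mean on both arrays, as were 7701 of all genes. The regulators Irf7 (6.21 and 7.13), Irf9 (7.67 and 8.30), Stat2 (6.75 and 6.95) and Dhx58 (8.92 and 9.65) were among the 21. A fit without 1 of these arrays leaves a lone adult array, so only differences are given for it here. Usp18 was 3.18 above NB_FACS without replicate 1 and 1.5 without replicate 2, and Ifi44 was 3.46 and 1.15. Without NB_FACS replicate 3, 5 ISGs were called higher in A_FACS, where 1604 of all 19560 genes were. Other lists moved between the same adult arrays. On replicates 1 and 2 the sums were 13.04 and 14.62 for erythroid, 12.61 and 13.60 for endothelial, 12.55 and 13.07 for fibroblast, 8.14 and 9.53 for border macrophage, 8.03 and 9.62 for neutrophil, 8.42 and 9.23 for astrocyte, and 11.83 and 12.47 for monocyte, lymphocyte and plasmacytoid dendritic cell markers, while microglial markers summed to 17.83 and 17.74. Some markers ran against their sums. Retnlg (7.43 and 7.10), Gfap (6.08 and 5.75), Slc1a3 (6.87 and 6.32), Pecam1 (7.60 and 7.44) and Ccr9 (7.58 and 7.50) were lower on replicate 2. So were Col3a1 and Lum, which stood well above background on no adult array. The neutrophil gene S100a8 read 3.53 and 9.00 and was well above background on 1 of these arrays. The part of these lists in the ISG values was not tested.

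**Figure D4:**
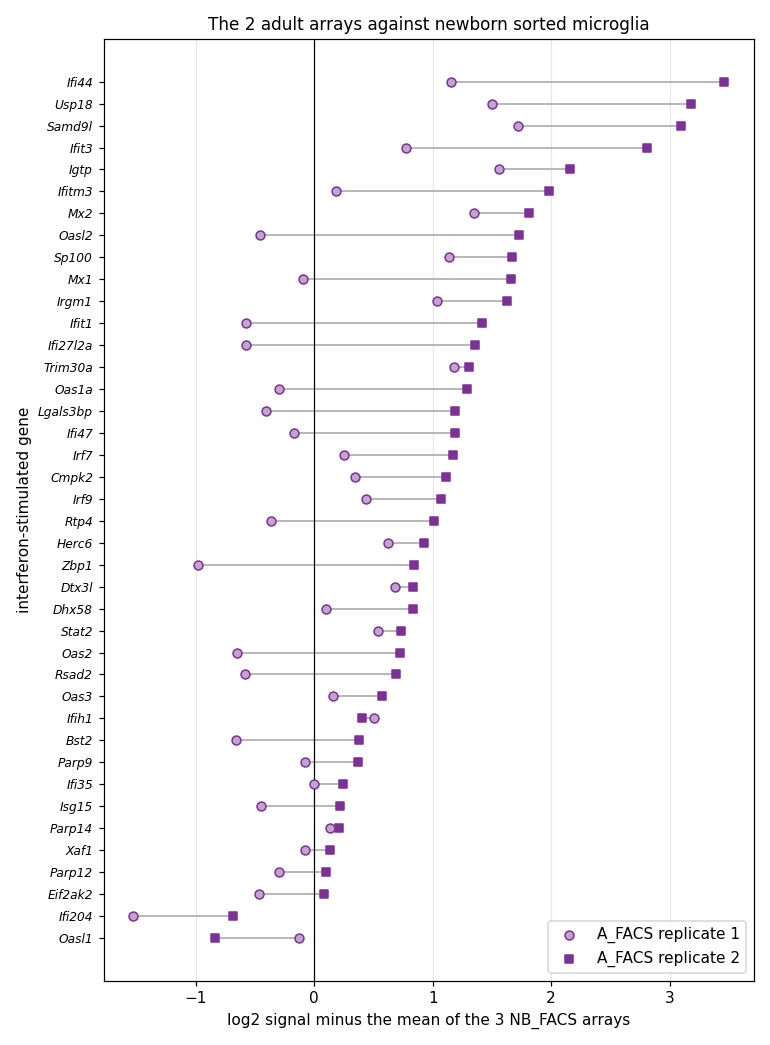
Log2 signal of each tested ISG on A_FACS replicate 1 (light circles) and replicate 2 (dark squares), minus the mean of the 3 NB_FACS arrays (x axis), with a line joining the arrays of a gene (y axis). The squares lie to the right of the circles for 38 of 40 ISGs, and 38 squares but 21 circles are above 0.

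The genes above the ISGs in the pathway did not move together. Ifnb1, which encodes interferon-β, read 6.16, 6.26 and 4.55 in NB_FACS, 3.64, 2.27 and 3.84 in NB_Control and 3.08, 3.06 and 4.29 in NB_Stim. It was well above background on 1 of 3 arrays of either cultured group and fell in NB_Control (-2.41, SE 0.55, adjusted p 0.00824). NB_FACS replicate 3 was the low sorted array here too. Of the 9 tested interferon ligands 2 fell in NB_Control (Ifnb1 and Ifnz) and none rose, where 13.9% and 15.8% of all genes did, a count too small to set the ligands apart. The receptor genes were not called in culture, with Ifnar1 at -0.08 (adjusted p 0.826), Ifnar2 at 0.56 (adjusted p 0.0571) and Ifngr1, for interferon-γ, at -0.10 (adjusted p 0.878). Among the other receptor and kinase genes Il10rb (0.48, adjusted p 0.0232) and Tyk2 (0.41, adjusted p 0.0402) rose and Jak2 fell (-1.73, adjusted p 7.46e-05), while Jak1 was at 0.34 (adjusted p 0.0999). Of 3 tested IRF genes outside the list, Irf2 rose and Irf1 was at 0.20 (adjusted p 0.495). Irf8 had no matched probe. The inhibitor Socs1 was at 0.11 (adjusted p 0.697). With the cytokines none of the 9 ligand genes, 3 IRF genes and 10 inhibitors was called against NB_Control, nor was any receptor or kinase gene named here, with Irf1 at -0.77 (adjusted p 0.0697).

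Among 16 other genes of nucleic acid sensing, 5 rose and 7 fell in NB_Control, where 15.8% of all genes rose and 13.9% fell. Ddx58, the RNA sensor RIG-I, read 8.27, 8.49 and 8.36 in NB_FACS and 10.78, 10.44 and 10.29 in NB_Control (2.13, adjusted p 1.82e-05) and fell with the cytokines to 9.38, 9.28 and 9.72 (-1.04, adjusted p 0.0103). Sting1, the adaptor of cytosolic DNA sensing, ran the other way, from 10.85, 10.97 and 11.71 to 8.54, 8.68 and 8.63 in NB_Control (-2.56, adjusted p 5.86e-05) and 10.67, 10.97 and 11.34 in NB_Stim (2.38, adjusted p 0.000923). Of 47 further interferon-induced genes, 26 rose and 5 fell in NB_Control, beside the same shares of all genes, with a median of 0.90 against 0.09 over all genes. Cxcl10, a chemokine induced by interferon and by NF-κB, was among those that fell (-7.31, adjusted p 2.01e-06). With the cytokines 0 of the 47 rose and 8 fell against NB_Control (1.40% and 2.00% of all genes), and 18 were higher and 7 lower than in NB_FACS (16.0% and 15.1%). In A_FACS 17 of them were higher and 5 lower than in NB_FACS (9.75% and 12.9% of all genes), and Irf1 was higher as well (1.12, adjusted p 0.00524).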

How the data were processed

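The members of the list, its roles and the pathway and marker lists were chosen with earlier results of these data known. Per the labels, cRNA was made with Agilent's low-input labelling kit; the authors deposited Feature Extraction (version 11 in the submitters' processing notes, 11.5.1.1 in the file headers) intensity values, background-subtracted and not normalised between arrays, and a value table of the same numbers (0 differed beyond a relative tolerance of 1e-05). No spot was saturated. From the deposited intensity, log2 values were computed here, spots of a probe averaged without outlier flags (138 probes dropped), quantile normalised in limma 3.58.1 (R 4.3.3), and filtered to the 44733 probes that stood well above background throughout at least 1 group. RefSeq accessions named 36264 of 60037 probes (60.4%, GRCm38.p6, names only), and probes of a gene were averaged. Limma fitted 4 group means (7 residual degrees of freedom) with two-sided tests. ISGs named in full were Irf7, Irf9, Stat2, Usp18, Ifih1 and Dhx58, the 4 largest called rises and falls per comparison and the 4 largest adult array differences. Others are named for their role or because their values stood out. Same-numbered newborn arrays deviated together (correlations over all genes of 0.11 to 0.49). Replicate 3 of each newborn group lay on slide 2, so these correlations cannot tell pairing by number from a slide difference. The limma fit was also run on simulated data with independent noise and no slide difference. There it called 58% of genes changed by a log2 of 1 and 95% of those changed by 2, with 11 false calls. Alternatives were 75th percentile scaling, normexp (offset 50), the value table, no or a stricter filter, the brightest probe, replicate and slide blocks, only the 2 groups compared, Tukey's test, a log2 difference of at least 1, averaged cultured replicates, each array left out and, chosen after seeing the data, slide 1 alone. Precision is limited by the number of arrays. Figures were drawn with matplotlib 3.10.9. One gene of the pathway list is not reported here.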

Additional observations from a re-analysis of the deposited data

How the results depend on the processing

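Of 3836 values of single ISGs recomputed under the alternatives, 3561 kept their call, or its absence. The sign turned in 62, none of them called in the fit as reported and none above 0.78 in size there, and 1 of the 62 was called with the turned sign: Ifih1 in NB_Stim against NB_FACS on its brightest probe (0.57, against -0.51 over both probes). Many of the 3836 values could not turn in sign, and the counts above include them. The value table held the same numbers, and Tukey's test and the added log2 threshold changed no difference. Nor did the fit of only the 2 groups compared, or leaving out an array of a group not compared. For NB_Control against NB_FACS, the count called lower was 1 under 75th percentile scaling, the replicate block, the slide block and slide 1 alone. For NB_Stim against NB_Control, the count called lower was 2 with the brightest probe, 7 with the slide block, 0 with Tukey's test, 0 with averaged cultured replicates and 7 on slide 1 alone (median -0.97), and the count called higher was 0 with Tukey's test and with averaged replicates. Over all genes, 420, 893, 96, 58 and 614 were called lower in the same order, and 87 and 60 higher. For NB_Stim against NB_FACS, the count called lower was 0 with normexp, with the stricter filter, with the brightest probe and with Tukey's test and 3 on slide 1 alone, 13 were called higher with Tukey's test, and the median was 0.69 with normexp. For A_FACS against NB_FACS, 0 were called lower with only the 2 groups compared, 2 on slide 1 alone and 0 with Tukey's test, which called 3 higher. The causes were not tested. Without single arrays, the numbers called higher and lower were 25 to 32 and 0 to 1 for NB_Control against NB_FACS (median 1.27 to 1.77), 1 to 2 and 1 to 6 for NB_Stim against NB_Control (-0.80 to -0.52), 18 to 24 and 1 to 3 for NB_Stim against NB_FACS (0.83 to 1.21), and 3 to 12 and 0 to 2 for A_FACS against NB_FACS (0.05 to 1.04). With a lone adult array its spread is assumed to be that of the other groups. The replicate block changed no call of a tested ISG other than those given with the results. The adult array difference was run with 3 other settings and moved by less than the spread between replicates. With 2 or 3 arrays a group, an uncalled ISG is not shown to be unchanged.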
